A study of Rattus norvegicus with 24 samples.

Results

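A set of 9 genes of the adhesion system that joins the 2 sides of a synapse were followed in rat frontal cortex, namely the neurexins Nrxn2 and Nrxn3, the neuroligins Nlgn1, Nlgn2 and Nlgn3, the leucine-rich repeat proteins Lrrtm1 and Lrrtm2, and the cerebellins Cbln1 and Cbln2. The 9 genes were picked by name among the 32883 reference genes of the tables, and each had 1 entry there, with Lrrtm1 written LRRTM1. RNA-Seq of 24 adult male Sprague-Dawley rats was used, taken 24 h after inhalation of tungsten particles, with 8 Control rats at 0 mg/m3, 8 Low rats at 5 mg/m3 and 8 High rats at 80 mg/m3. All 3 groups were of the same strain, and 1 library was made per rat from polyadenylated RNA. The titles of all 24 samples, Control included, carry the word Repeat. Whether it means repeated exposure was not settled here. The comparisons ask whether a low or a high aerosol concentration leaves a difference in cortical RNA.

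Neurexins are receptors on the presynaptic membrane that bind partners across the synaptic cleft. Neuroligins and LRRTM proteins are partners on the postsynaptic membrane, and cerebellins are secreted proteins that bridge neurexins to glutamate receptors of the delta family. Neuroligins are known for setting the properties of excitatory and inhibitory synapses, with Nlgn1 mainly at excitatory and Nlgn2 mainly at inhibitory contacts, and the family has been studied in the brain because changes in it are linked to neurodevelopmental disorders.

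The values are coverage, the mean read depth per base of a gene, divided in each library by the sum over the reference genes and multiplied by 1000000, here called scaled coverage. It is a depth per base, but its relation to the deposited FPKM differs between genes, so an order of genes by level holds for the coverage column. In units of 1000000, the summed coverage of a library ran from 1.64 to 3.07, and mitochondrial genes took 21.8 to 33.8% of it. Tables of Control and High rats also list loci assembled from the reads, whereas tables of Low rats list 0, so the kind of table and the Low group cannot be told apart. Control replicate 49 and Low replicate 57 stood apart in earlier results of these data, and results that rest on them are given with and without them. Neuronal markers were present in all libraries, with Slc17a7, the vesicular glutamate transporter of cortical excitatory neurons, at 302 to 905. Of 2 endothelial markers listed, only 1 was found by name, Cldn5, at 0 to 0.128, so endothelial content could not be judged. A list of 4 striatal markers (Drd1, Drd2, Ppp1r1b and Adora2a) had a summed level of 266 to 583 in the Control libraries, 198 to 445 in the Low libraries and 137 to 915 in the High libraries. Ppp1r1b, at 128 to 758, was the largest part of this sum in every library. Drd1, Drd2 and Adora2a reached at most 56.1, 42.3 and 67.7. In such bulk libraries, fewer cells of a type and less RNA per cell cannot be told apart.

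Among the 9 genes, 0 passed the threshold between Low and Control, where 6.11% of the 15644 genes tested did and 4.88% were lower in Low. Between High and Control, 0 of the 9 passed, against 0% of all genes in either direction. By limma 330 genes had an unadjusted p under 0.05 in that comparison, and the exact Wilcoxon rank-sum test called 0 genes as well. Without Control replicate 49 and Low replicate 57 together, 390 of 15685 genes (2.49%) passed between High and Control, 2474 genes had an unadjusted p under 0.05, and 0 of the 9 members passed. Between Low and High, 1 of the 9 passed, Nrxn2, which was lower in Low, where 11.7% of all genes passed and 6.39% were lower in Low, so that the share of members was near that of all genes. Without replicates 49 and 57 together, 1 member passed between Low and Control and 5 between Low and High, where 4.32% and 28.8% of all genes did. A gene passed when its Benjamini-Hochberg adjusted p in limma, over all genes tested, was under 0.05. The median log2 difference of the 9 genes was 0.06 between Low and Control, −0.08 between High and Control and 0.18 between Low and High, and over all genes tested it was 0.06, −0.03 and 0.09. Of the 9 genes, 8 had a higher mean log2 level in Low than in High, the exception being Nrxn2, as did 69.9% of all genes tested. Without scaling 5 of these 8 (Nlgn1, Nlgn2, Nlgn3, Lrrtm1 and Cbln1) were lower in Low, where the median log2 difference over all genes was −0.12.

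**Figure D1:**
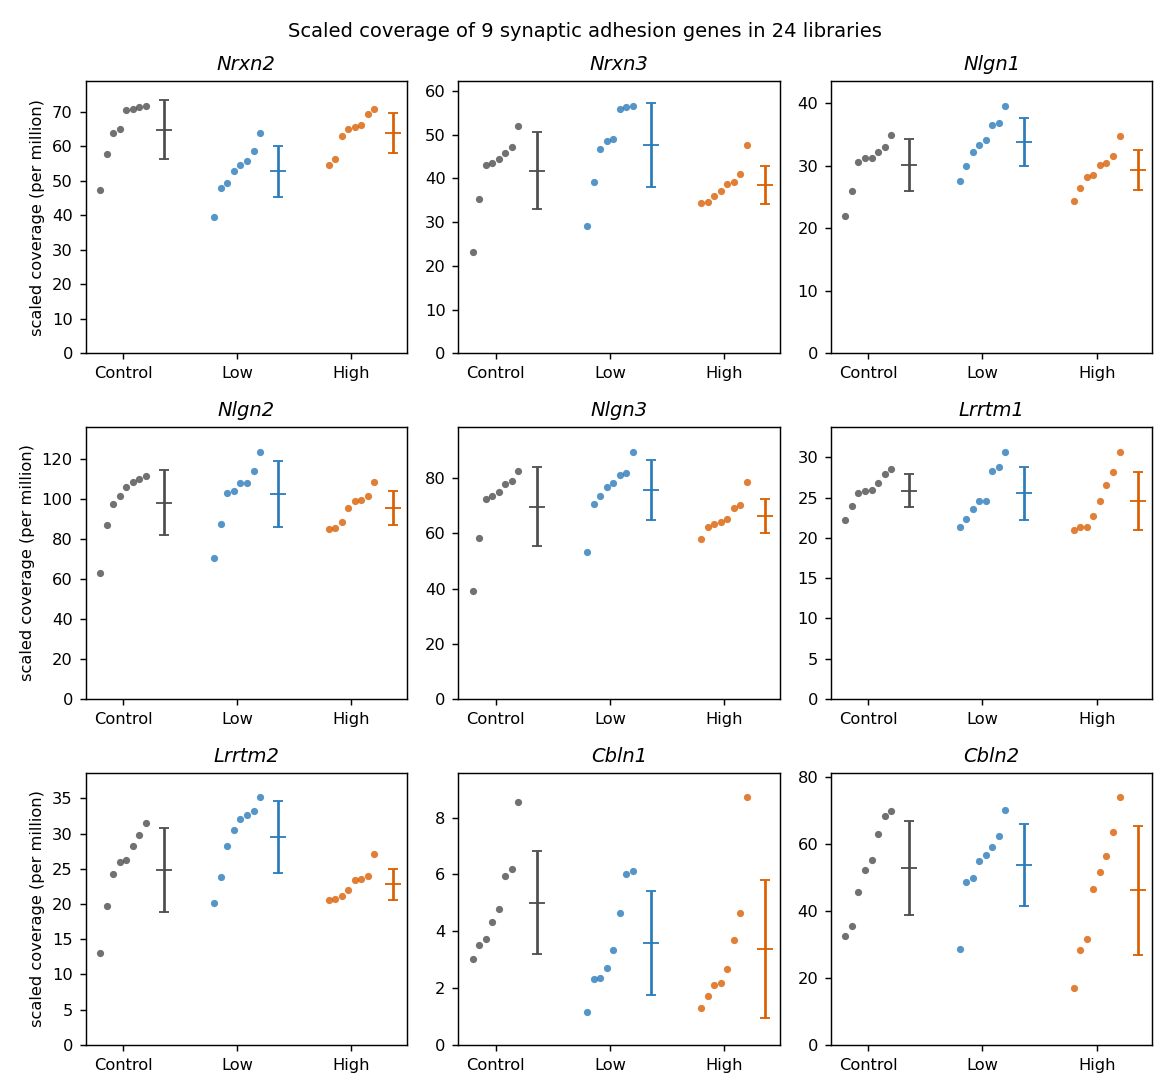
Scaled coverage (per 1000000, each axis from 0) of the 9 genes in the Control, Low and High groups, 8 libraries each. Points are libraries in order of value, and the bars beside them give the mean ± SD. Nrxn2 sits lower in Low (mean 52.8) than in Control (64.8) and High (63.7), and a low library is seen in Control and in Low for Nrxn2, Nrxn3, Nlgn2, Nlgn3 and Lrrtm2.

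By scaled coverage in Control, Nlgn2 had the highest mean of the 9 genes, 98.2 ± 16.3 (SD, n = 8), and lay above Nlgn3, at 69.7 ± 14.2, in 8 of 8 libraries. Nrxn2 followed with 64.8 ± 8.56, Cbln2 with 52.8 ± 14.1 and Nrxn3 with 41.8 ± 8.86. Nlgn1 was at 30.1 ± 4.17, Lrrtm1 at 25.8 ± 2.05 and Lrrtm2 at 24.8 ± 5.999, and Cbln1 was lowest with 5.00 ± 1.82. The ranges of neighbours in this order overlapped for every pair but the last, since the Control range of Cbln1 ended below that of Lrrtm2. Lrrtm1 was above Lrrtm2 in only 3 of 8 Control libraries, so these neighbours did not differ beyond their spread. In the FPKM column the order began differently, with Nrxn2 first at 50.1 ± 3.59 (SD, n = 8) and above Nlgn2, at 36.9 ± 2.25, in 8 of 8 Control libraries, and Lrrtm2, at 9.27 ± 1.65, before Lrrtm1, at 8.81 ± 0.531. The other members kept their places relative to each other. By scaled coverage over all 24 libraries, Nlgn2 was above 90.6% of the genes tested and Cbln1 above 20.3%. Library values of Lrrtm1 spanned 1.46-fold, the narrowest span of the 9 genes, while those of Cbln2 spanned 4.32-fold and those of Cbln1 7.55-fold.

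The neurexins differed from each other in their pattern over the groups. Nrxn2 (ENSRNOG00000021103) lies on chromosome 1, plus strand, from 221792221 to 221908049. Positions here are those of the tables, and the build named in the labels, mRatBN7.2, does not match their sequence names, so the build was not settled. The tables give whole genes without exons. Scaled coverage of Nrxn2 was 47.3 to 71.7 in the Control libraries (median 67.8), 39.3 to 63.8 in the Low libraries (median 53.7) and 54.4 to 70.7 in the High libraries (median 65.2). All 8 Low libraries were below the Control median and below the High median, 4 of the 8 were below the lowest High library, and the ranges overlapped. The log2 difference between Low and High was −0.28 (SE 0.0905, 95% interval −0.46 to −0.09, limma adjusted p = 0.0490), a level 0.826 times that of High. Between Low and Control it was −0.29 (95% interval −0.48 to −0.10, limma adjusted p = 0.0566), and between High and Control −0.02 (−0.20 to 0.17, adjusted p = 0.999). Without Control replicate 49 and Low replicate 57 together, Nrxn2 also passed between Low and Control, at −0.30 (limma adjusted p = 0.0107).

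The Nrxn2 difference between Low and High sat close to the threshold. It stayed past it in 4 of the 24 fits that left out 1 library, with adjusted p from 0.0189 to 0.0824. The deposited FPKM and TPM columns gave the opposite direction, also past the threshold, with a log2 difference between Low and High of 0.72 in FPKM and 0.31 in TPM. In these columns the median over all genes was itself shifted, to 0.52 and 0.15. Of genes called lower in Low than in High by coverage, 14.7% of the 762 tested in FPKM were called higher there. In TPM it was 5% of 980. Deposited FPKM of Nrxn2 was 45.5 to 54.2 in the Control libraries, 71.2 to 100.3 in the Low libraries and 38.9 to 61.9 in the High libraries, so the Low libraries were above all others. The same held in FPKM for Nlgn1, Nlgn2 and Nlgn3, and 89.8% of all genes passed between Low and High in that column. That share is of limma calls, and genes with all Low libraries above all others were not counted in FPKM.

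Nrxn3 (ENSRNOG00000047574) is on chromosome 6, plus strand, from 112133204 to 114067564, the longest of the 9 genes. Its scaled coverage was 23.1 to 51.9 in the Control libraries (median 44.0), 29.1 to 56.6 in the Low libraries (median 48.8) and 34.4 to 47.7 in the High libraries (median 37.9). In all, 7 of 8 Low libraries lay above the High median and the ranges overlapped. Low and High differed by a log2 difference of 0.28 (95% interval −0.01 to 0.56, limma adjusted p = 0.182), and between Low and Control 0.19 (−0.09 to 0.48, adjusted p = 0.480). Without Control replicate 49 and Low replicate 57 together, Nrxn3 passed between Low and High with a log2 difference of 0.37 (limma adjusted p = 0.00273).

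Each library gives its own ratio of one neurexin to the other, which needs no scaling between libraries. In the coverage column the ratio of Nrxn2 to Nrxn3 was 1.36 to 2.05 in the Control libraries (median 1.54), 0.980 to 1.35 in the Low libraries (median 1.13) and 1.48 to 1.81 in the High libraries (median 1.66). Every Low library was below every Control and every High library. With 1 added to each value, the log2 ratio differed by −0.48 between Low and Control and by −0.55 between Low and High, and both differences had p = 0.0001554 in a two-sided exact permutation test, the smallest that 12870 permutations can give (adjusted p = 0.00117 over 15 tests). Between High and Control the difference was 0.07 (exact permutation p = 0.332, adjusted p = 0.623). Both differences stayed past the threshold without Control replicate 49 and Low replicate 57, at −0.47 and −0.59. When the ratio to Nrxn3 was formed for each of the other 15643 genes, 1.49% were lower in every Low library in the same way.

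**Figure D2:**
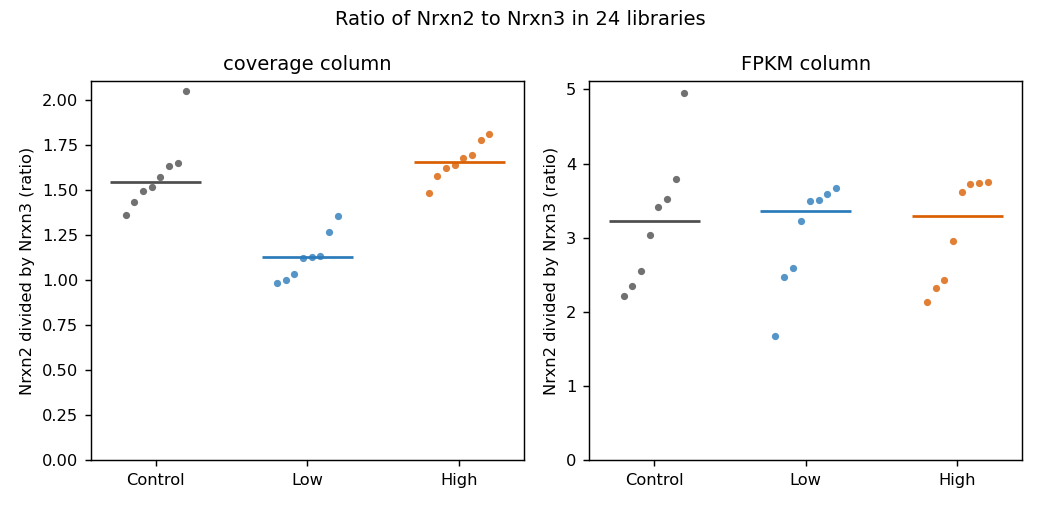
Ratio of Nrxn2 to Nrxn3 in each library (no unit, axes from 0) by group, from the coverage column (left) and from the FPKM column (right). Points are libraries and lines are group medians, 8 libraries each. In coverage the Low libraries (0.980 to 1.35) lie below all others, while in FPKM the 3 groups overlap, with medians of 3.22, 3.36 and 3.29.

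The ratio depended on the column. From FPKM, the ratio of Nrxn2 to Nrxn3 was 2.21 to 4.95 in the Control libraries, 1.67 to 3.68 in the Low libraries and 2.13 to 3.75 in the High libraries, and the log2 differences of Low from Control and from High were −0.06 and −0.01 (exact permutation, adjusted p = 0.874 and 0.957). Within 1 library, most genes share a single quotient of FPKM and coverage, and 70.0 to 72.3% of the 7387 genes with coverage over 20 in all libraries had it (within 0.001). Nrxn2 did not. Its quotient, relative to the common one, was 2.13 to 2.50 in the Control libraries, 2.69 to 3.51 in the Low libraries and 1.98 to 2.56 in the High libraries, with every Low library above all others. Of those 7387 genes, 14.9% had a Low quotient above all others in this way. For Nrxn3 the relative quotient was 1.01 to 1.67 over the libraries and the groups overlapped.

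**Figure D3:**
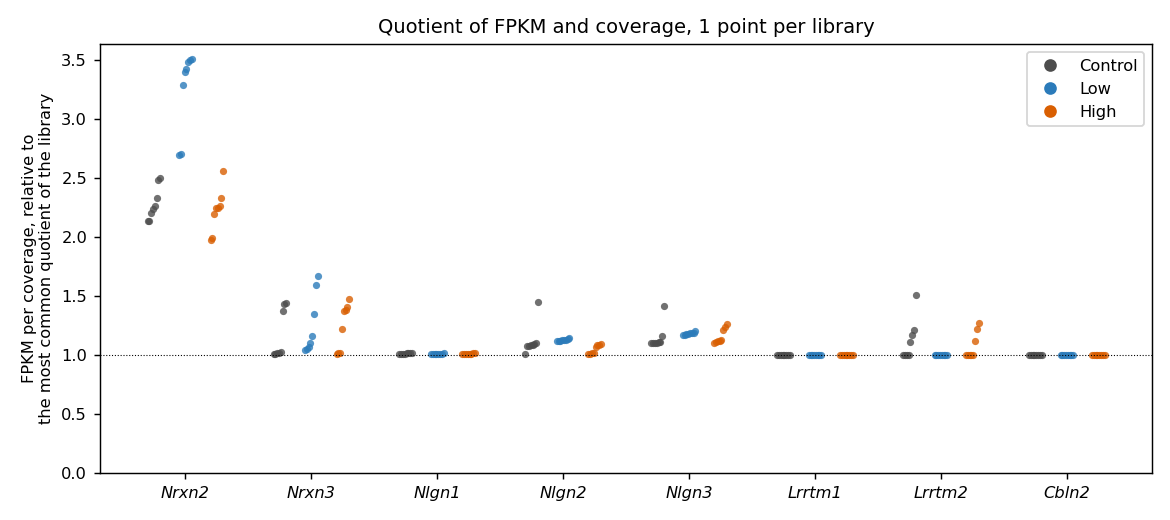
Quotient of FPKM and coverage for 8 of the genes, relative to the most common quotient of the same library (no unit, axis from 0), 1 point per library and 8 libraries per group. The dotted line marks 1. Nrxn2 lies at 1.98 to 3.51, highest in Low, while Lrrtm1 and Cbln2 lie on the line. Cbln1 was too low to be included.

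An assembled locus spanned Nrxn2 on the same strand in 14 of 16 Control and High tables, Nrxn3 in 16 of 16, Nlgn2 in 14, Cbln1 in 15 and each of the other members in 16, so these genes are listed under 2 identifiers there. In Control replicate 56 the table also held 280 assembled loci on the strand opposite Nrxn3 and 163 opposite Nlgn1, whereas the next highest numbers were 2 and 1. The part of the assembled loci in the group differences was not tested, and it cannot be told apart from the Low group.

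The 3 neuroligins kept a steady order. Nlgn1 (ENSRNOG00000032576) is on chromosome 2, minus strand, from 111057291 to 111793326, and was at 22.0 to 34.8 in the Control libraries (median 31.2), 27.6 to 39.6 in the Low libraries (median 33.7) and 24.4 to 34.8 in the High libraries (median 29.3). In all, 7 of 8 Low libraries lay above the High median, with overlapping ranges. Between Low and High the log2 difference was 0.20 (95% interval 0.02 to 0.38, limma adjusted p = 0.136). Between Low and Control it was 0.16 (−0.02 to 0.35, adjusted p = 0.322).

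Nlgn2 (ENSRNOG00000015430), on chromosome 10, minus strand, from 56431573 to 56444847, was at 63.2 to 112 in the Control libraries (median 104), 70.7 to 124 in the Low libraries (median 106) and 85.2 to 109 in the High libraries (median 97.6). These ranges overlapped almost fully. Between Low and Control its log2 difference was 0.06 (95% interval −0.16 to 0.29, limma adjusted p = 0.790), and between Low and High 0.09 (−0.14 to 0.31, adjusted p = 0.615). Nlgn3 (ENSRNOG00000003812), on chromosome X, plus strand, from 71199491 to 71222732, was at 39.3 to 82.7 in the Control libraries (median 74.1), 53.2 to 89.6 in the Low libraries (median 77.6) and 58.0 to 78.5 in the High libraries (median 64.8). Its log2 difference between Low and High was 0.18 (95% interval −0.07 to 0.42, limma adjusted p = 0.327). For both genes the lowest Control library was replicate 49 and the lowest Low library was replicate 57.

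In the coverage column, Nlgn2 stood per library at 2.35 to 3.52 times the level of Nlgn1, and Nlgn3 at 1.77 to 2.56 times. Neither ratio passed between any 2 groups. The nearest was the ratio of Nlgn2 to Nlgn1 between Low and High, with a log2 difference of −0.11 (exact permutation p = 0.0651, adjusted p = 0.244 over 15 tests). Without Control replicate 49 and Low replicate 57 together, Nlgn1 and Nlgn3 passed between Low and High with log2 differences of 0.22 and 0.25 (limma adjusted p = 0.0332 and 0.0112), and Nlgn2 did not, at 0.16 (adjusted p = 0.0864).

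Lrrtm1 and Lrrtm2 were at like levels and behaved differently among libraries. To let a reader compare the pair, the windows around their annotated starts are shown, from 250 bases before to 50 bases into the gene, from RefSeq (build GRCr8), with the letters TGACGTCA in capitals. These letters are the palindromic cAMP response element, which reads the same on both strands. The LRRTM1 window is chr4:111259609-111259908, plus strand, and the Lrrtm2 window is chr18:27096918-27097217, minus strand.
Lrrtm1: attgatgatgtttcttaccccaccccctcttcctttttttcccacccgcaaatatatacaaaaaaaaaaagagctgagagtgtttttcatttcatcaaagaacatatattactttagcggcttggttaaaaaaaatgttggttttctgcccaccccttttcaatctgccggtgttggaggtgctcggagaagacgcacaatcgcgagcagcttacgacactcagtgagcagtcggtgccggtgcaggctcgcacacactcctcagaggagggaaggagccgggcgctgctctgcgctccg
Lrrtm2: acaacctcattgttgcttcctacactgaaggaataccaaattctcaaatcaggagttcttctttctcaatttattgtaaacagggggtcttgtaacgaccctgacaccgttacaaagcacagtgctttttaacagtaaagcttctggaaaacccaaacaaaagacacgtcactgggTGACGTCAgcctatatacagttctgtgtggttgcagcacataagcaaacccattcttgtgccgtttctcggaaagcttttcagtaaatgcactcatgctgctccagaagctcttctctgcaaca
The Lrrtm2 window held the motif once, starting 74 bases before the start, and the LRRTM1 window did not hold it. Of 33469 windows in the table, 1.83% held it. Windows were listed for 6 of the 9 genes, and those of Nlgn1, Nlgn2, Nlgn3 and Cbln2 did not hold the motif. The libraries measured RNA, not the activity of these windows.

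Lrrtm1 (ENSRNOG00000006093) lies on chromosome 4, plus strand, from 108301129 to 108316373 in the tables. Its scaled coverage was 22.2 to 28.5 in the Control libraries (median 25.9), 21.4 to 30.6 in the Low libraries (median 24.6) and 21.0 to 30.7 in the High libraries (median 23.7). The 3 ranges nearly coincided. Its log2 difference was −0.02 between Low and Control (95% interval −0.20 to 0.15, limma adjusted p = 0.909) and 0.06 between Low and High (−0.12 to 0.23, adjusted p = 0.683).

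Lrrtm2 (ENSRNOG00000047085) lies on chromosome 18, minus strand, from 28012877 to 28017925, within Ctnna1, which is on the other strand. Kits that mark strand keep the pair apart only if the counting used strand, which is not stated in the sources used here. The same limit holds for Lrrtm1. An assembled locus on the opposite strand spanned it in every Control and High table but that of replicate 56. In Control replicate 49 that locus had a coverage of 112, and Lrrtm1 had 47.9. Lrrtm2 was at 13.0 to 31.6 in the Control libraries (median 26.1), 20.2 to 35.2 in the Low libraries (median 31.3) and 20.6 to 27.1 in the High libraries (median 22.7). In all, 7 of 8 Low libraries lay above the High median, and the remaining one, replicate 57, was below the lowest High library. Between Low and High the log2 difference was 0.34 (SE 0.136, 95% interval 0.06 to 0.62, limma adjusted p = 0.0998), the largest in size in that comparison among the 9 genes, and did not pass the threshold. It passed without replicates 49 and 57 together, at 0.41 (limma adjusted p = 0.00188). Between Low and Control the log2 difference of Lrrtm2 was 0.26 (−0.02 to 0.54, adjusted p = 0.307).

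The ratio of Lrrtm1 to Lrrtm2 was 0.885 to 1.85 in the Control libraries, 0.6999 to 1.427 in the Low libraries and 0.890 to 1.48 in the High libraries. In all, 6 of 8 Low libraries were below every Control library, and 6 of 8 were below every High library. The log2 difference between Low and Control was −0.28 (exact permutation p = 0.0926, adjusted p = 0.278), and between Low and High −0.29 (p = 0.0581, adjusted p = 0.244). Without replicates 49 and 57 together both passed, the log2 difference of Low from High then being −0.38 (exact permutation, adjusted p = 0.00389).

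**Figure D4:**
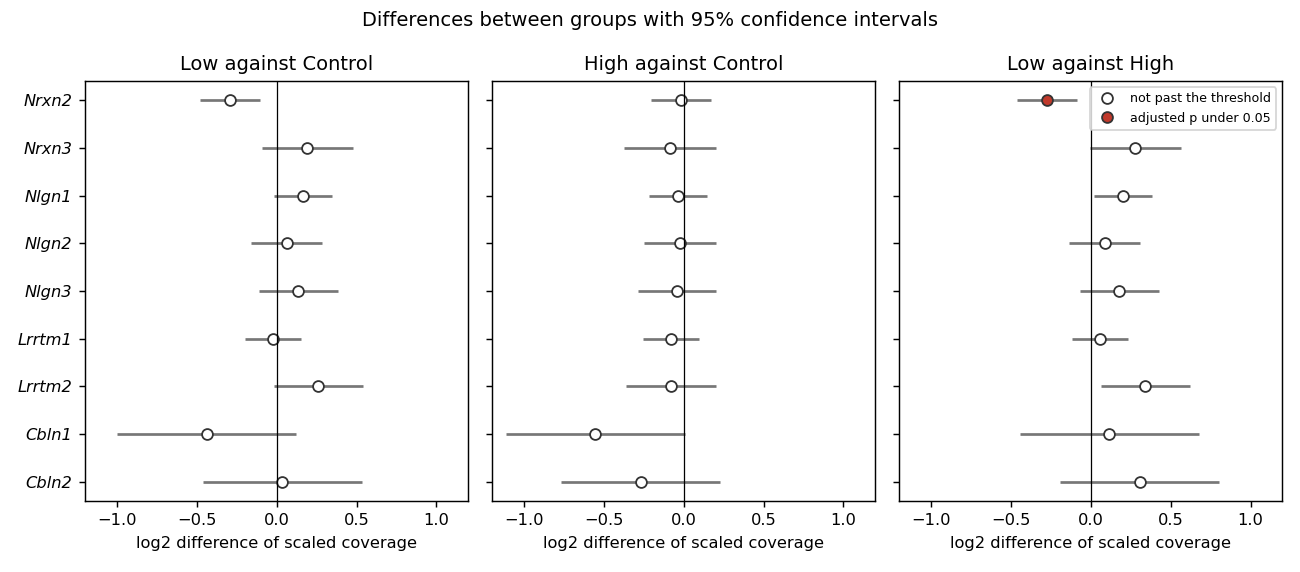
Log2 difference of scaled coverage (with 1 added) between groups for the 9 genes, with 95% confidence intervals from limma, 8 libraries per group. The filled point is past the threshold and open points are not. Nrxn2 between Low and High (−0.28) is the filled point, and the intervals of Cbln1 and Cbln2 are the widest.

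The cerebellins had the widest spread. Cbln1 (ENSRNOG00000000010), best known as a product of cerebellar granule cells, is on chromosome 19, plus strand, from 20607507 to 20611316. It was at 3.02 to 8.55 in the Control libraries (median 4.56), 1.15 to 6.14 in the Low libraries (median 3.02) and 1.28 to 8.71 in the High libraries (median 2.43). In all, 5 of 8 High libraries and 4 of 8 Low libraries were below the lowest Control library. The log2 difference between High and Control was −0.55 (SE 0.271, 95% interval −1.11 to 0.01, limma adjusted p = 0.999), and between Low and Control −0.44 (−0.998 to 0.12, adjusted p = 0.405). High replicate 65, at 8.71, was far above the other High libraries, and leaving out 1 library at a time gave −0.74 to −0.44 between High and Control.

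Cbln2 (ENSRNOG00000013654), on chromosome 18, plus strand, from 83777665 to 83782930, was at 32.6 to 69.9 in the Control libraries (median 53.7), 28.6 to 70.1 in the Low libraries (median 55.8) and 17.1 to 73.9 in the High libraries (median 49.2). The High range held both the lowest and the highest of the 24 libraries. The log2 difference between High and Control was −0.27 (95% interval −0.77 to 0.23, limma adjusted p = 0.999), and between Low and High 0.30 (−0.19 to 0.80, adjusted p = 0.407).

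Cbln2 was low where the summed level of the 4 striatal markers, of which Ppp1r1b was the largest part, was high. In the 4 libraries with the highest sums, Control replicate 55 and High replicates 65, 66 and 67, Cbln2 was at 17.1 to 32.6, and in the other 20 libraries at 28.6 to 73.9. Over the 24 libraries, as deviations from group means, Pearson's r of Cbln2 with that sum was −0.759 and Spearman's rho −0.724, and r was −0.734 without the 2 libraries farthest out (replicates 65 and 67). For Cbln1, r was 0.662, rho 0.659 and r without those libraries 0.558, while r of the other 7 genes lay between −0.184 and 0.131. These libraries share their dissection and depth with both measures, so the values are a description. Without those 4 libraries, the log2 difference of Cbln2 was 0.08 between High and Control and −0.14 between Low and High, and with the striatal level as a covariate it was −0.41 and 0.20. The part of the striatal markers in the other results was not tested beyond these fits.

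**Figure D5:**
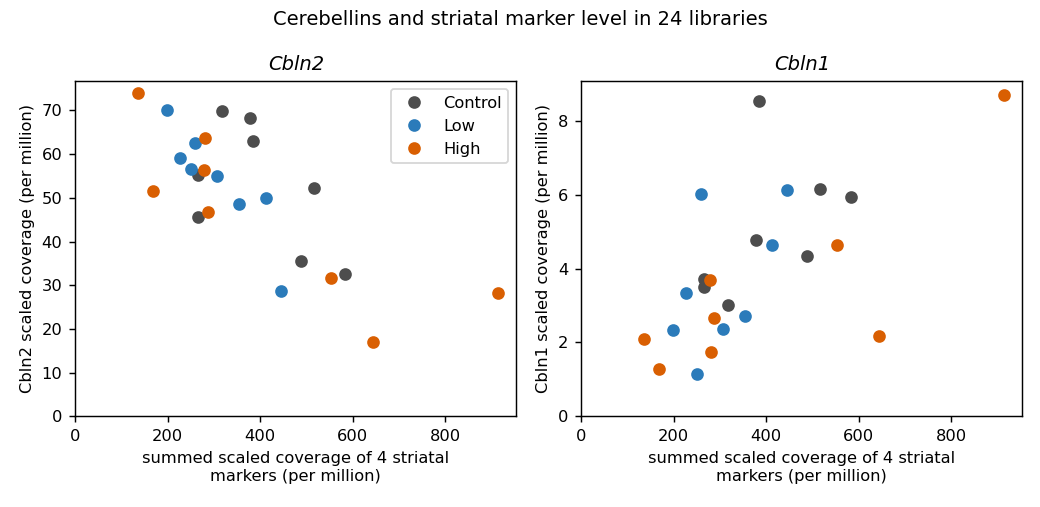
Scaled coverage (per 1000000) of Cbln2 (left) and Cbln1 (right) against the summed scaled coverage of 4 striatal markers (per 1000000), 1 point per library, coloured by group. The 4 libraries with the highest sums have Cbln2 at 17.1 to 32.6, and High replicate 65 has the highest Cbln1 value, 8.71.

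The neurexins, the neuroligins and Lrrtm2 went up and down together from library to library, a grouping made after the values were seen. As deviations from group means over 24 libraries, Pearson's r between log2 values was 0.847 to 0.965 over the 15 pairs of these 6 genes, highest for Nrxn3 and Nlgn3. Without replicates 49 and 57 it was 0.727 to 0.917. With these 6 genes Lrrtm1 had an r of 0.23 (Nlgn2) to 0.58 (Nlgn1), and 0.25 with Lrrtm2. Without replicates 49 and 57 it had 0.46 (Lrrtm2) to 0.76 (Nrxn2), so its separation rested in part on these libraries. Cbln2 had 0.04 (Nlgn3) to 0.26 (Nlgn1) with the 6 genes, and 0.27 (Nlgn3) to 0.59 (Nlgn2) without them. Cbln1 and Cbln2 had −0.34 with each other, and −0.33 without replicates 49 and 57. The members share depth and scaling in each library, so these are descriptions. The gene whose log2 level over the 24 libraries was most like that of each member, by Pearson's r among 13069 genes with a symbol, was Ap2b1 for Nrxn2 (0.933), Prr14l for Nrxn3 (0.9747), Copg2 for Nlgn1 (0.951) and Camsap1 for Nlgn2 (0.964). It was Tp53bp1 for Nlgn3 (0.977), Ppp2r2b for Lrrtm1 (0.804), Atrn for Lrrtm2 (0.973), Lxn for Cbln1 (0.886) and Galnt9 for Cbln2 (0.945). This search did not use deviations from group means and was not repeated without replicates 49 and 57, so the genes named may rest on them.

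A wider list of 64 genes of synaptic adhesion was set beside the members, of which 62 were found by name and 60 tested. Between Low and Control 1 was higher in Low and 1 lower, between High and Control 0 passed, and between Low and High 3 were higher in Low and 1 lower. These 2 and 4 genes were 3.33% and 6.67% of the 60, where 6.11% and 11.7% of all genes passed. The median log2 difference of the 60 genes was 0.11, −0.05 and 0.16 in the 3 comparisons, against 0.06, −0.03 and 0.09 over all genes. Lrrtm4, a relative of Lrrtm1 and Lrrtm2 that also binds heparan sulfate proteoglycans, was lower in Low. It was at 9.43 to 15.4 in the Control libraries (median 13.8), 7.75 to 14.1 in the Low libraries (median 8.403) and 10.98 to 15.0005 in the High libraries (median 13.4). The log2 difference was −0.48 from Control and −0.47 from High (limma adjusted p = 0.00693 and 0.00621). As with Nrxn2, the FPKM column gave the opposite direction for Lrrtm4, 0.42 and 0.40, and the TPM column 0.06 and 0.03.

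Tenm2, a teneurin that binds latrophilins across the cleft, rose in Low against Control, with 12.3 to 21.7 in the Control libraries (median 19.2), 19.5 to 32.3 in the Low libraries (median 27.7) and 14.8 to 25.5 in the High libraries (median 22.0), a log2 difference of 0.52 (limma adjusted p = 0.0114). Ptprd, a receptor phosphatase of the presynaptic side, was higher in Low than in High, with 57.2 to 83.1 in Low and 40.6 to 66.2 in High (log2 difference 0.41, limma adjusted p = 0.0120). So was Il1rapl1, a postsynaptic partner of Ptprd, at 1.11 to 5.26 in Low and 1.13 to 2.95 in High (0.64, limma adjusted p = 0.0222). Neither gene showed a rise in Low over Control, with log2 differences of 0.13 for Ptprd and 0.05 for Il1rapl1 (limma adjusted p = 0.524 and 0.912). High was the group with the lowest median. Ptprd had medians of 68.3 (Control), 72.0 (Low) and 53.5 (High), and Il1rapl1 had 3.86, 3.61 and 1.97. High differed from Control by −0.27 and −0.59, and neither passed (limma adjusted p = 0.999 for each). For Tenm2, Ptprd and Il1rapl1, FPKM and TPM had the same direction, but both columns were shifted upward in Low over all genes. In FPKM the median log2 difference over all genes was 0.53 between Low and Control and 0.52 between Low and High. A shared upward direction is therefore no separate evidence for these genes.

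By role, with levels in scaled coverage, the secreted partners were led by C1ql3 at a mean of 106 over all libraries, with Nxph3 at 43.4 and Nxph1 at 35.0, and 0 of 7 passed in any comparison. Of 11 genes listed under presynaptic receptors, led by Clstn1 at 719, Clstn3 at 237 and Adgrl1 at 157, Ptprd was the 1 that passed. Roles were assigned from general knowledge, and the side of the synapse, such as that of Clstn1 and Clstn3, was not measured. Among 28 postsynaptic adhesion genes, led by Cadm3 at 320, Cadm4 at 279 and Lrrc4b at 157, Lrrtm4, Tenm2 and Il1rapl1 passed. The inhibitors of neuroligin binding Mdga1 and Mdga2 were at 6.17 and 10.02 and did not pass. The intracellular partners included Dlg4 at 479 and Lin7b at 117, which did not pass. The splicing regulators of neurexins Khdrbs1, Khdrbs2 and Khdrbs3, at 93.2, 9.52 and 174, did not.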

How the data were processed

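Groups of the 24 rats were taken from the concentration in the labels, and replicates were named by library number. The authors deposited 1 StringTie gene table per rat. The coverage column, as the authors made it with StringTie and deposited it, is a signal of mean read depth per base, with no adjustment for library size. The FPKM column that the authors deposited is relative to transcript length and library size. The TPM column deposited for Low rats adds up to 1000000. In Control and High tables the authors' TPM also holds assembled loci, and there the deposited column is a score rather than TPM. The labels name Trimmomatic, TopHat2 and StringTie, with no versions. No read counts are in the tables, so depth in reads and counting error are not known, and intervals come from the spread between rats.

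Coverage was summed per reference gene, divided by its library sum and expressed per 1000000. The 15644 genes whose mean was 1 or more were tested with limma 3.58.1 (trend, robust) in R 4.3.3 on log2(value + 1), which understates changes of low genes, with 3 groups in 1 fit, two-sided, and a Benjamini-Hochberg adjusted p under 0.05 as threshold. Limma was tested on simulated data with known answers. Ratios of 5 pairs of members were tested by exact permutation over rats, adjusted over 15 tests. Alternatives were a pseudocount of 0.1, a minimum mean of 5 or none, other scalings, the other columns, covariates, Wilcoxon tests and libraries left out. Tables and plots were made in Python 3.11.15 with pandas 2.3.3, numpy 2.4.6, matplotlib 3.10.9 and scipy 1.17.1.

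The members, gene lists and tests were chosen with earlier results of these data known. All members are named, with adhesion genes past the threshold, the 3 highest of each role and the gene most like each member. Some genes of the lists are not reported here, while counts and medians over the lists include them.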

Additional observations from a re-analysis of the deposited data

Results flagged for a closer look

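Among 42 sets of 8 values (members and log2 ratios in each group), 6 held a library farther from the rest than Dixon's 95% critical value for 8 values allows, where chance gives about 2.1. Cbln1 in High replicate 65 was at 8.71, and the other High libraries were at 1.28 to 4.64. The other 5 were ratios of replicates 49 and 57, which stood apart in earlier results of these data. The log2 ratio of Nlgn2 to Nlgn1 was 1.21 in Low replicate 57, against 1.54 to 1.72 in the other Low libraries. For Nlgn3 to Nlgn1 the log2 ratio was 0.81 in Control replicate 49, against 1.11 to 1.31, and 0.80 in Low replicate 57, against 1.13 to 1.33. For Lrrtm1 to Lrrtm2 it was 0.84 in Control replicate 49, against −0.17 to 0.16, and 0.49 in Low replicate 57, against −0.50 to −0.09.

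Both concentrations share the Control group, and the difference between them was tested directly. Nrxn2 differed between Low and High by −0.28 on the log2 scale (limma adjusted p = 0.0490), lower than the High median in 8 of 8 Low libraries. The log2 ratio of Nrxn2 to Nrxn3 differed by −0.55 (exact permutation p = 0.0001554, the smallest possible, adjusted p = 0.00117 over 15 tests), lower than every High library in 8 of 8 Low libraries. Neither kept its direction and call in FPKM, and the kind of table cannot be told apart from the Low group.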

How the results depend on the processing

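The column decided most. In FPKM 8 of 9 members passed between Low and Control and 8 between Low and High, as did 89.7% and 89.8% of all genes, and the median log2 difference over all genes was 0.53 and 0.52. In TPM 1 member, Nrxn2, passed in each of these, as did 25.4% and 25.2% of all genes. Directions that reversed with a call in either fit were Nrxn2 between Low and Control (0.71 in FPKM, 0.30 in TPM), Nrxn2 between Low and High (0.72 and 0.31) and Lrrtm1 between Low and Control (0.45 in FPKM, against −0.02). Differences that passed in neither fit also changed sign under at least 1 alternative, for Nlgn2, Lrrtm1 and Cbln2 between Low and Control, for every member but Cbln1 between High and Control, and for the neuroligins, Lrrtm1, Cbln1 and Cbln2 between Low and High (without scaling, −0.13 for Nlgn2, −0.16 for Lrrtm1 and −0.04 for Nlgn3). For Lrrtm1 between Low and Control the TPM column gave 0.07. The ratios past the threshold went from 1 to 0 in FPKM and in TPM, for Low against Control and for Low against High, and to 2 without replicates 49 and 57 together (1 to 2 with each library left out).

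Between Low and Control, members passing went from 0 to 1 (Nrxn2) with median-of-ratios scaling, with scaling without mitochondrial genes and without replicates 49 and 57, and were 0 to 1 with each library left out (1 without replicate 49 or 59). In these fits, in that order, 6.93, 10.7 and 4.32% of all genes passed, and 5.11 and 4.41% without replicate 49 or 59. Between Low and High, the 1 member (Nrxn2) went to 0 with the Wilcoxon test, no filter, a minimum mean of 5, libraries 56 to 62 as a covariate (a set taken from a pattern in these data, not a condition), the striatal level as a covariate, and without replicates 55 and 65 to 67. It went to 2 with the mitochondrial share as a covariate and with only the groups compared (Lrrtm2 added), and to 5 without replicates 49 and 57. Leaving out each library gave 0 to 2, where 8.08 to 17.1% of all genes passed, and Nrxn2 was kept without replicates 49, 59, 67 or 72. No alternative gave a member between High and Control.

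For the adhesion list, Low against Control gave 2 genes in the fit reported, 56 in FPKM, 12 in TPM, 6 with the mitochondrial share, 4 with scaling without mitochondrial genes, 1 with the Wilcoxon test, 1 with libraries 56 to 62 as a covariate, 0 without scaling, and 2 to 3 with each library left out. The share of all genes was 6.11% in the fit reported, 89.7% in FPKM, 25.4% in TPM and 10.7% in either mitochondrial fit. It was 2.38% with the Wilcoxon test, 2.31% with libraries 56 to 62 as a covariate and 4.44% without scaling. With each library left out it was 4.32 to 7.83%. Low against High gave 4 genes, 56 in FPKM, 14 in TPM, 8 with the mitochondrial share, 8 with scaling without mitochondrial genes, 20 without replicates 49 and 57, 1 with the Wilcoxon test, 1 without scaling, 1 without replicates 55 and 65 to 67, 0 with libraries 56 to 62 as a covariate, and 2 (without replicate 59) to 12 (without replicate 61) with each library left out, 8 without replicate 49. In the same order, the share of all genes was 11.7% in the fit reported, then 89.8, 25.2, 16.7, 16.6 and 28.8%. It was 7.33% with the Wilcoxon test, 7.99% without scaling, 5.56% without replicates 55 and 65 to 67 and 2.26% with libraries 56 to 62. Without replicates 59, 61 and 49 it was 8.2, 15.8 and 17.1%. High against Control gave 7 without replicates 49 and 57, where 2.49% of all genes passed, and otherwise 0. Over all genes, calls between High and Control were 390 without replicates 49 and 57 together and 0 in every other fit. Those between Low and Control were 956, and 361 to 12393 under the alternatives. Between Low and High they were 1828, and 354 to 12410. The striatal covariate, the fit without replicates 55 and 65 to 67 and the TPM ratios were chosen after seeing the data. Replicates 49 and 57 were left out because they stood apart in earlier results of these data. The p-values of that fit thus follow a choice made from the data. Except for the FPKM, TPM and assembled-locus values given, the cause was not tested, and read depth is unknown.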
